A study of Mus musculus with 6 samples.

Results

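The SMAD proteins and the activin or BMP receptors were examined as 10 genes, Smad1, Smad2, Smad3, Smad4, Smad5, Smad6, Smad7, Acvr1b, Acvr2a and Bmpr1a, out of 48709 genes in the count table. The list was chosen from measured values of these libraries, because Smad5 was higher with the CHD4-APR peptide, so the values of Smad5 in that contrast are given as a description with no test. The RNA came from G1E-ER4, a line of immature mouse erythroblasts made from embryonic stem cells, in which tamoxifen activates a GATA-1 and estrogen receptor fusion. In 3 libraries the cells had received CHD4-APR, a peptide for an aggregation-prone region of the chromatin remodeler CHD4 joined to the cell-penetrating Tat sequence, and in 3 libraries a Tat-joined control peptide made of alanine (CTRL). Both peptides were added at 10 μM 2 h before tamoxifen, and RNA was taken after 28 h of tamoxifen, so every library comes from the same fusion-carrying line with GATA-1 induced, and a culture without tamoxifen was not analysed here.

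SMADs carry signals of the TGF-beta family from the membrane to the nucleus. A ligand brings type I and type II receptor kinases together, and the type I receptor then phosphorylates a receptor SMAD, which is Smad1, Smad5 or Smad9 for BMP signals and Smad2 or Smad3 for activin and TGF-beta signals. The phosphorylated SMAD joins the common partner Smad4 and enters the nucleus, while Smad6 and Smad7 are inhibitory SMADs. In red cell biology, BMP4 and Smad5 are known for the stress response of mouse erythroid progenitors, and activin-type ligands are known for restraining late erythroid maturation.

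The promoters of Smad5, Acvr2a and Acvr1b are shown because they set the gene on which the list was chosen beside a receptor at a low level and a receptor with no counts. They are the bases before the start site in RefSeq's GRCm38.p6, read 5′ to 3′ on the gene's strand, with each CpG in capitals. RefSeq lists 3 start windows for Smad5, of which the window that does not reach into an annotated exon is shown.
Smad5, chr13:56702760-56703009, plus strand: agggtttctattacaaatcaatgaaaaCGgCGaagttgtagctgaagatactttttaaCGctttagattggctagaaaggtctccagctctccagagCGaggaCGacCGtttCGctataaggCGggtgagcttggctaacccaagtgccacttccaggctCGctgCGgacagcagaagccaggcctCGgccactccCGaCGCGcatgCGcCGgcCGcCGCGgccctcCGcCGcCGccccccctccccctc
Acvr2a, chr2:48813859-48814108, plus strand: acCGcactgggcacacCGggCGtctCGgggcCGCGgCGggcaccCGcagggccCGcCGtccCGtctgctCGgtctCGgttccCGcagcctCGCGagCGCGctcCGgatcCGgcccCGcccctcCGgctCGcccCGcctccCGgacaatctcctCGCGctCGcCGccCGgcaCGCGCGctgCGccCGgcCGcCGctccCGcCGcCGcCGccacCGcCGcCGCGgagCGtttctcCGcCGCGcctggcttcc
Acvr1b, chr15:101173822-101174066, plus strand: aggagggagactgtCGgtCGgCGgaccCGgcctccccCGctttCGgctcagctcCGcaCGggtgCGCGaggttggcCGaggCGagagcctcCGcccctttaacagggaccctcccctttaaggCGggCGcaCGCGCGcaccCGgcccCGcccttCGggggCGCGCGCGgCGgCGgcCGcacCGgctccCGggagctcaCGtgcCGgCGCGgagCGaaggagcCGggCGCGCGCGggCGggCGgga
The Smad5 window of 250 bases held 22 CpG, the Acvr2a window of 250 bases held 49 and the Acvr1b window of 245 bases, which ends where an annotated exon begins, held 42. The median over 32851 RefSeq promoters was 6 CpG. On either strand, none of the 3 windows held the GATA motif (GATA with A or T before it and A or G after it), the GC-rich BMP SMAD motif GGCGCC or the SMAD palindrome (GTCT joined to its reverse complement), which 26.5%, 9.59% and 0.167% of all RefSeq promoters held. Of the other 2 Smad5 windows, 1 held GGCGCC and 1 held the GATA motif, so these absences are of the windows shown. Acvr1b, which had no counts, and Acvr2a both had CpG-dense promoters.

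The libraries held 41687482 to 49784177 counts, and 12722 genes had enough counts for the test. All 8 erythroid marker genes reported here, among them Alas2 and Slc4a1, had counts, with a summed level of 36524 to 38570 normalized CPM (counts scaled to a common library total) in CTRL and 32281 to 34006 in CHD4-APR. Of 19 markers of other cell types, 9 were at 0 in all 6 libraries, including Mpo of myeloid cells, Cd3e of T cells, Pou5f1 and Nanog of embryonic stem cells and Col1a1 of fibroblasts. Over all protein-coding genes 38.9% were at 0 in all 6 libraries, and the origin of such zeros was not tested. The summed level of those 19 was 51.1 to 54.3 CPM in CTRL and 45.0 to 49.5 CPM in CHD4-APR, and most of it came from the 4 megakaryocyte markers (46.7 to 48.8 against 39.9 to 45.7 CPM), whereas the myeloid, lymphoid and mast cell sums of the groups overlapped. Both the erythroid and the megakaryocyte sums were lower in every CHD4-APR library. Gata1, a member of the erythroid list and the gene of the fusion protein, went the other way, from a mean of 1609 to 1860 CPM (log2 fold change 0.21, edgeR adjusted p = 0.00214; 0.34 with the length and GC correction described with Smad5). The part of these markers in the results that follow was not tested. In such bulk RNA, fewer cells of a type and less RNA per cell cannot be told apart. Chd4 itself, from whose protein the peptide derives, differed by 0.054 on the log2 scale (edgeR quasi-likelihood test, adjusted p = 0.322).

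Compared per kilobase of exon, so that genes of different length can be set side by side, the members ran from no counts at all to nearly 10 normalized CPM per kilobase. Smad4 had the highest level, with a mean of 8.31 CPM per kilobase over the 6 libraries (7.06 to 9.57). Smad5 followed at 5.07 (3.81 to 6.16), Smad2 at 1.95 (1.75 to 2.25) and Smad6 at 1.26 (1.19 to 1.36). Acvr2a, the only receptor member with counts, was at 0.581 (0.436 to 0.761), Smad1 at 0.101 (0.0582 to 0.131), Smad7 at 0.0720 (0.0418 to 0.107) and Smad3 at 0.00566. Over both groups together the ranges of Smad1 and Smad7 overlapped, although within CHD4-APR they were separate, whereas every other pair of neighbours in this order was separate in all 6 libraries. Among the genes tested, these levels placed Smad4 at the 60.8th percentile, Smad5 at the 49.8th, Smad2 at the 31.9th, Smad6 at the 25.5th and Acvr2a at the 16.3rd, with Smad1 at the 2.99th and Smad7 at the 1.62nd.

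**Figure D1:**
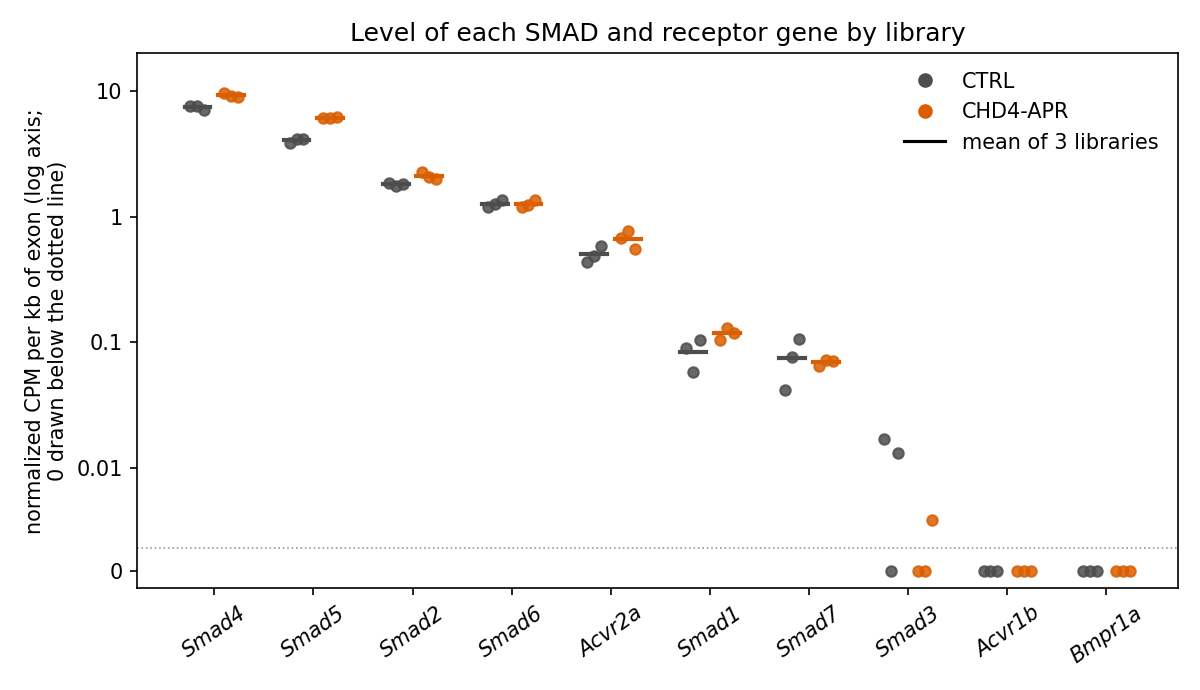
Level of each of the 10 genes in each library, in normalized CPM per kilobase of exon on a log axis, with values of 0 drawn below the dotted line. Points are libraries (grey CTRL, orange CHD4-APR) and bars are means of 3 libraries. Smad4 and Smad5 lie highest, and Acvr1b and Bmpr1a are at 0 in all 6 libraries.

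The BMP-class receptor SMADs were represented almost entirely by Smad5. Within Smad1, Smad5 and Smad9 on the per-length scale, Smad5 made up 97.9% ± 0.569 (SD, n = 3) of the class in CTRL and 98.1% ± 0.229 (SD, n = 3) in CHD4-APR. Smad9, the third BMP-class SMAD, had 0 counts in all 6 libraries. The activin and TGF-beta class was in turn represented by Smad2, which made up 99.5% ± 0.480 of Smad2 and Smad3 in CTRL and 99.9% ± 0.110 in CHD4-APR (two-sided exact permutation test, p = 0.4, adjusted p = 0.7 over 2 tests, smallest possible p 0.1). Of the inhibitory pair, Smad6 made up 94.5% ± 1.94 in CTRL and 94.8% ± 0.289 in CHD4-APR (two-sided exact permutation test, p = 0.7, adjusted p = 0.7). With 3 libraries a group, such a test cannot reach 0.05. The cells therefore held mainly Smad5, Smad2, Smad4 and Smad6 RNA, whichever peptide they had received.

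Smad5 (ENSMUSG00000021540), on chromosome 13 at 56703010 to 56742377 of GRCm38 on the plus strand, had 28.3, 30.5 and 30.9 normalized CPM in CTRL replicates 1 to 3 and 45.4, 44.8 and 45.7 in CHD4-APR replicates 1 to 3. All 3 CHD4-APR libraries were high and all 3 CTRL libraries low, without overlap. These values, which chose the list, correspond to raw counts of 1198, 1504 and 1281 against 2030, 1913 and 2159, to means of 29.9 ± 1.42 against 45.3 ± 0.489 CPM (SD, n = 3), and to a log2 fold change of 0.60 (SE 0.055), or 1.51-fold. Fold changes over all genes followed a trend with transcript length and GC content, so they were also computed after a smooth of that trend was removed. The Smad5 transcripts cover 7420 exonic bases, with 44.5% GC in the longest transcript, from which the GC content of every gene was taken. The medians over the genes tested were 3688 bases and 49.6%. With the correction the log2 fold change of Smad5 was 0.39 (SE 0.047), the remaining 0.21 being the trend at its length and GC content. The per-length ratio of Smad5 to Smad4 was 0.50, 0.546 and 0.591 in CTRL and 0.640, 0.659 and 0.689 in CHD4-APR, a ratio that uses the same Smad5 values and is given as a description. Per kilobase, Smad5 lay below Smad4 in every library.

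The genes whose pattern over the 6 libraries was nearest to that of Smad5 were Appl1, an endosomal adaptor protein, Btaf1, a regulator of TATA-binding protein, and Scyl2, a protein of clathrin-coated vesicles. Their root mean square difference from Smad5 in centred log2 CPM was 0.0254, 0.0301 and 0.0308 among 12721 genes compared. Their log2 fold changes were 0.59, 0.58 and 0.57, and they had 8719, 10259 and 10099 exonic bases and 41.1%, 43.2% and 43.0% GC. All 3 were thus longer and lower in GC than Smad5.

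Among the other 9 members, 2 had no counts, Smad3 had too few, and 6 were tested. Smad4, Smad2 and Acvr2a, 3 of the 6, were called higher at an adjusted p under 0.05 and 0 were called lower, where 20.4% of all 12722 genes tested were called higher and 17.8% lower. At an unadjusted p under 0.05 the number lower was also 0, as it was with DESeq2 and limma-voom. In Smad4 and Smad2 every CHD4-APR library was above every CTRL library, which held for 25.0% of all genes tested. With the length and GC correction, Smad4 alone remained called among the 6, and 12.2% of all genes were called higher. These counts are given beside the background and nothing is read from them, since the members share the contrast that chose the list.

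Smad4, the common partner of the receptor SMADs, lies on chromosome 18 at 73639009 to 73703780 on the minus strand. Its levels were 28.3, 27.9 and 26.2 CPM in CTRL and 35.5, 34.0 and 33.2 CPM in CHD4-APR. The groups did not overlap, with means of 27.5 ± 1.11 and 34.2 ± 1.19 CPM (SD, n = 3). The log2 fold change was 0.32 (SE 0.059, edgeR adjusted p = 5.4e-04). Smad4 has 3712 exonic bases and 49.4% GC, close to the medians of the genes tested, and its value with the correction was also 0.32 (edgeR adjusted p = 4.62e-04).

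Smad2, the receptor SMAD of activin and TGF-beta signals, lies on chromosome 18 at 76241580 to 76310963 on the plus strand. It had 16.3, 15.3 and 15.8 CPM in CTRL and 19.8, 18.1 and 17.6 CPM in CHD4-APR, again without overlap, and rose by 0.23 on the log2 scale (SE 0.071, edgeR adjusted p = 0.0195). The call was lost with the length and GC correction, where the log2 fold change was -0.0042 (edgeR adjusted p = 0.973) for a gene of 8781 exonic bases and 44.9% GC. It was also lost without CTRL replicate 2 (log2 fold change 0.20, edgeR adjusted p = 0.0549), without CTRL replicate 3 (0.22, edgeR adjusted p = 0.0574) and without CHD4-APR replicate 1 (0.18, edgeR adjusted p = 0.0962). Smad2 and Smad4 therefore had similar changes in the uncorrected values and different ones in the corrected values, although the difference between the genes was not tested.

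Smad1, a BMP-class SMAD closely related to Smad5, lies on chromosome 8 at 79338395 to 79399518 on the minus strand and had low counts. Its raw counts were 24, 18 and 27 in CTRL and 29, 35 and 35 in CHD4-APR. In normalized CPM the groups overlapped, at 0.528 ± 0.148 and 0.736 ± 0.0852 (SD, n = 3). The log2 fold change of 0.49 (SE 0.30) did not pass (edgeR adjusted p = 0.213) and was 0.27 without CTRL replicate 2 (edgeR adjusted p = 0.557), and at this depth a change of the size seen in Smad5 could not be told from none. Smad3, the other SMAD of the activin class, on chromosome 9 at 63646767 to 63757994, had 4, 0 and 3 counts in CTRL and 0, 0 and 1 in CHD4-APR. Its ratio of CHD4-APR to CTRL per total count was 0.146 with an exact 95% interval of 0.00323 to 1.13, which covers counting error only.

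The inhibitory SMADs were not called. Smad6, which acts mainly against BMP signals and lies on chromosome 9 at 63953076 to 64022059, had 3.80, 4.01 and 4.37 CPM in CTRL and 3.83, 3.98 and 4.32 CPM in CHD4-APR. The libraries of both groups thus covered the same range, with a log2 fold change of -0.0054 (SE 0.12, edgeR adjusted p = 0.976) and of 0.13 with the correction (edgeR adjusted p = 0.468). Smad7, which acts against both classes and lies on chromosome 18 at 75367529 to 75395935, had raw counts of 8, 17 and 20 in CTRL and 13, 14 and 15 in CHD4-APR. Its log2 fold change of -0.12 had an SE of 0.40 (edgeR adjusted p = 0.848), so its low counts leave a wide range open in either direction.

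**Figure D2:**
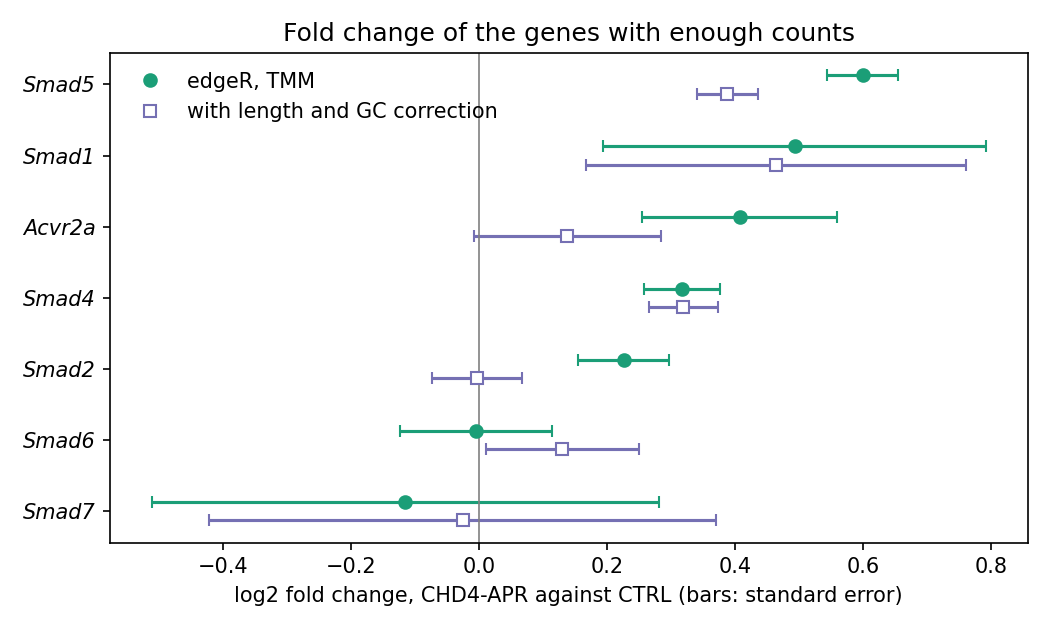
Log2 fold change of CHD4-APR against CTRL for the 7 members with enough counts, with standard errors. Filled circles are the edgeR values and open squares those with the length and GC correction. Smad4 keeps 0.32 on both, Smad2 moves from 0.23 to -0.0042 and Smad5 from 0.60 to 0.39.

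Of the 3 receptor members, Acvr2a, a type II receptor for activins and some BMPs, was the only member with counts. It lies on chromosome 2 at 48814109 to 48903269 on the plus strand and had 2.48, 2.73 and 3.31 CPM in CTRL and 3.83, 4.33 and 3.16 CPM in CHD4-APR. CHD4-APR replicate 3 fell below CTRL replicate 3, so the groups overlapped. The log2 fold change was 0.41 (SE 0.15, edgeR adjusted p = 0.0443), at the edge of the threshold. The call was lost with DESeq2 (adjusted p = 0.0510), limma-voom (adjusted p = 0.0552) and upper quartile scaling (edgeR adjusted p = 0.0508), and with the length and GC correction the log2 fold change was 0.14 (edgeR adjusted p = 0.538). It was also lost without CTRL replicate 1 (log2 fold change 0.32, edgeR adjusted p = 0.141), CTRL replicate 2 (0.38, edgeR adjusted p = 0.1), CHD4-APR replicate 1 (0.40, edgeR adjusted p = 0.0929) or CHD4-APR replicate 2 (0.30, edgeR adjusted p = 0.199). Of its 5686 exonic bases, 446 overlap Orc4, a gene of the origin recognition complex on the opposite strand with 7042 counts in all and a log2 fold change of 0.18 (edgeR adjusted p = 0.0383), which turned to -0.19 with the correction (edgeR adjusted p = 0.0147). The library kit does not mark strand, so reads of both genes in that stretch cannot be told apart.

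Acvr1b, the type I activin receptor also called ALK4, on chromosome 15 at 101174067 to 101213684, and Bmpr1a, the type I BMP receptor ALK3, on chromosome 14 at 34410734 to 34503341, had 0 counts in all 6 libraries. Over the 267900381 counts of the 6 libraries, 3 counts would be 0.0112 CPM, the level that a count of 0 still allows, or 0.00253 CPM per kilobase for Acvr1b and 0.00176 for Bmpr1a. Being at 0 was common in the table: 8440 of 21695 protein-coding genes (38.9%) had no count in any library, among them the broadly expressed receptors Acvr1 and Tgfbr2. The limits hold only if these zeros come from sampling, which was not tested. No fold change was computed for either receptor.

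The remaining receptors of the family give the context of those zeros. Of 7 type I receptor genes, 6 had no counts (Acvr1b, Bmpr1a, Acvr1, Acvr1c, Acvrl1 and Bmpr1b) and Tgfbr1, the type I TGF-beta receptor, was the exception. Tgfbr1 had 6.47, 7.29 and 7.46 CPM in CTRL and 11.9, 11.8 and 10.5 CPM in CHD4-APR, a rise of 0.69 on the log2 scale (SE 0.091, edgeR adjusted p = 3.0e-05), and of 0.42 with the correction. Tgfbr2, the type II receptor with which Tgfbr1 is known to bind TGF-beta, had 0 counts in every library.

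The type II receptors with counts were Bmpr2, Amhr2, Acvr2b and Acvr2a. Bmpr2, a type II receptor for BMPs, had 30.8, 30.3 and 33.3 CPM in CTRL and 50.6, 45.0 and 41.3 CPM in CHD4-APR and rose by 0.54 on the log2 scale (SE 0.070, edgeR adjusted p = 2.5e-05), or by 0.19 with the correction (edgeR adjusted p = 0.0426). Amhr2, the receptor of anti-Müllerian hormone, was at 3.48 ± 0.247 against 3.86 ± 0.242 CPM (SD, n = 3; log2 fold change 0.15, edgeR adjusted p = 0.363). Acvr2b, the relative of Acvr2a, was at 2.27 ± 0.191 against 2.37 ± 0.177 CPM (SD, n = 3). Its log2 fold change was 0.056 (SE 0.15, edgeR adjusted p = 0.804), and 0.0098 to 0.13 when each library was left out. On the per-length scale the order over the 6 libraries was Bmpr2 (2.14 CPM per kilobase), Amhr2 (1.83), Tgfbr1 (1.41), Acvr2b (0.590) and Acvr2a (0.581), in which Tgfbr1 and Acvr2b were the only neighbours with separate ranges over both groups together. Within either group Amhr2 was also above Tgfbr1 in every library, and within CHD4-APR Bmpr2 was above Amhr2, whereas the ranges of Acvr2a and Acvr2b overlapped in both groups. By total exonic length, Acvr2a thus shared the lowest place with Acvr2b. The longest transcripts of Acvr2a and Acvr2b have 5686 and 3175 bases, and the receptor order was not computed with longest transcripts. On the scale of total exonic length Acvr2a made up 10.9% ± 1.56 of type II receptor level in CTRL and 11.6% ± 1.57 in CHD4-APR (SD, n = 3), while Bmpr2 made up 38.3% ± 1.66 and 44.2% ± 1.05.

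**Figure D3:**
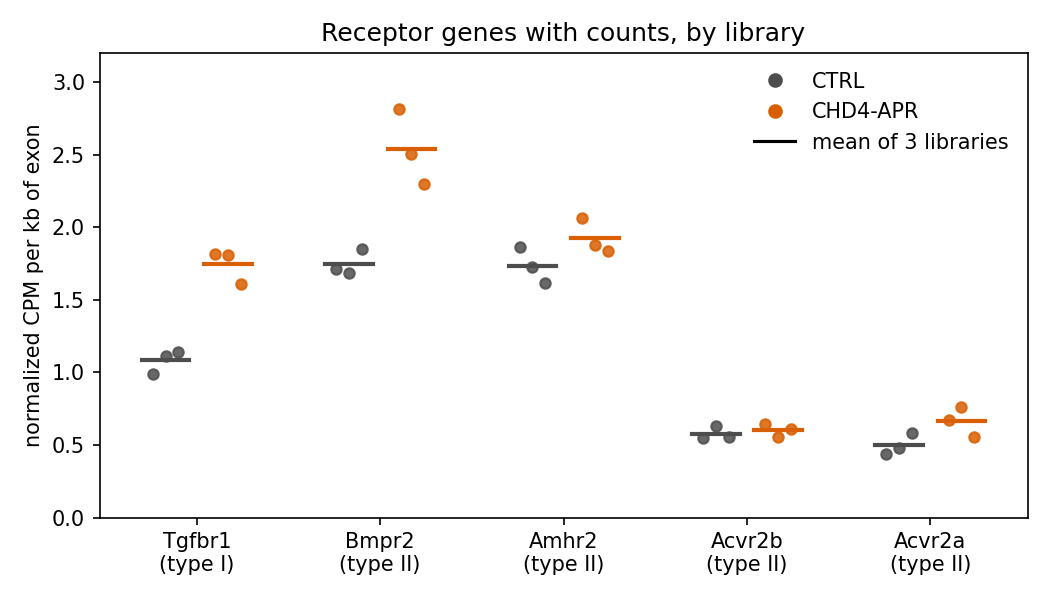
Level of the 5 receptor genes with counts in each library, in normalized CPM per kilobase of exon from 0, with bars at the mean of 3 libraries. Tgfbr1 and Bmpr2 are higher in every CHD4-APR library, and the libraries of Acvr2a and Acvr2b lie together below 0.8. The other 7 receptor genes, at 0 throughout, are not drawn.

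A wider list of 111 genes of the same pathway was described in the same way. No counts were found for 40, another 21 had too few, and 50 were tested, of which 22 (44.0%) were called higher, 6 (12.0%) lower and 22 neither, beside 20.4% higher and 17.8% lower over all genes tested, with a median log2 fold change of 0.072 against -0.012 over all genes tested. With the length and GC correction 14 (28.0%) were higher, of which 13 had been so without it, and 4 (8.0%) were lower, of which 1 had been, beside 12.2% and 15.6% over all genes, with a median of 0.027 against -0.022. Of 29 ligands 16 were at 0, a larger share than the 38.9% of protein-coding genes at 0. Of the ligands 5 were tested and 0 passed in either direction (edgeR, also 0 at an unadjusted p under 0.05, with DESeq2 and with limma-voom). Tgfb1, the ligand with the most counts, had a log2 fold change of -0.064 (edgeR adjusted p = 0.371). Of 8 co-receptors and decoys 4 were tested, and Neo1, a receptor that also binds repulsive guidance molecules, was the only call, at 0.80 (SE 0.30, edgeR adjusted p = 0.0469), which was lost with the correction (0.67, edgeR adjusted p = 0.112), with DESeq2 (adjusted p = 0.0764), with no filter on low counts (edgeR adjusted p = 0.0524), and without CTRL replicate 1 (0.65), CTRL replicate 3 (0.70) or any of the 3 CHD4-APR libraries (0.78 to 0.84; edgeR adjusted p 0.0892 to 0.16 over these 5 fits). Of 11 secreted antagonists 2 were tested, and Twsg1, a BMP-binding protein, was called at 0.27 (edgeR adjusted p = 0.00743), a call that was lost with the correction (0.14, edgeR adjusted p = 0.104).

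Among 17 tested intracellular negative regulators, genes that restrain SMADs inside the cell, 7 were higher and 3 lower, beside 20.4% and 17.8% of all genes tested. With the correction 5 of those 7 stayed higher, none of the 3 stayed lower, and Ppm1a and Ranbp3 were lower instead, beside 12.2% and 15.6% of all genes. Skil, a corepressor that binds Smad4, had 8.26, 8.83 and 9.27 CPM in CTRL and 15.9, 13.5 and 14.3 in CHD4-APR, a log2 fold change of 0.73 (0.41 with the correction), and Tob1, an antiproliferative protein that binds SMADs, had 5.60, 5.06 and 5.75 against 9.78, 8.68 and 8.30 CPM, a log2 fold change of 0.71 (0.69 with the correction). Lemd3, an inner nuclear membrane protein that binds receptor SMADs, changed by 0.48 (0.43 with the correction), and Smurf2, a ubiquitin ligase for SMADs and receptors, and Trim33, a ubiquitin ligase for Smad4, by 0.33 and 0.34. The calls of Smurf2 and Trim33 were lost with the correction, at log2 fold changes of 0.20 (edgeR adjusted p = 0.0897) and 0.075 (edgeR adjusted p = 0.379).

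Among 12 tested anchors, cofactors and positive regulators, 9 were higher and 1 lower, beside 20.4% and 17.8% of all genes tested. With the correction 4 of those 9 stayed higher and Foxh1 joined them, and the 1 lower gene was Usp15 in place of Hgs, beside 12.2% and 15.6% of all genes. Their median log2 fold change was 0.25 and, with the correction, 0.075. Zfyve16, an endosomal protein that binds SMADs, changed by 0.55 on the log2 scale (0.27 with the correction), Ep300, a histone acetyltransferase that SMADs recruit, by 0.50 (0.37) and Rnf111, a ubiquitin ligase that removes SMAD repressors, by 0.35 (0.16), and all 3 kept their call. Usp9x, a deubiquitinase of Smad4, and Ipo7, a nuclear import receptor, changed by 0.38 and 0.40 and lost the call with the correction, at 0.025 (edgeR adjusted p = 0.649) and 0.057 (edgeR adjusted p = 0.371). The 12 tested genes had medians of 11597 exonic bases and 46.5% GC. Of 15 transcriptional targets 6 were tested, 2 higher and 2 lower, beside 20.4% and 17.8% of all genes tested. Id1, a direct target of BMP SMADs, had a lower level with CHD4-APR (30.2 ± 1.84 against 26.0 ± 1.45 CPM, SD, n = 3; log2 fold change -0.21, edgeR adjusted p = 0.0164), a call that was lost with the correction (-0.048, edgeR adjusted p = 0.580). Klf10, a TGF-beta-inducible zinc finger gene, was at 0.997 ± 0.240 against 1.69 ± 0.267 CPM (SD, n = 3; log2 fold change 0.77, edgeR adjusted p = 0.0122), which was lost without CTRL replicate 2 (0.59, edgeR adjusted p = 0.0622) or CHD4-APR replicate 2 (0.65, edgeR adjusted p = 0.0656). Cdkn1a, a cell cycle inhibitor, fell by 0.21 (edgeR adjusted p = 0.00171), with a value of -0.11 under the correction (edgeR adjusted p = 0.0308), and Tsc22d1, a TGF-beta-responsive gene, rose by 0.22 (edgeR adjusted p = 0.0033). With the correction 2 of the 6 targets were higher and 1 was lower.

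**Figure D4:**
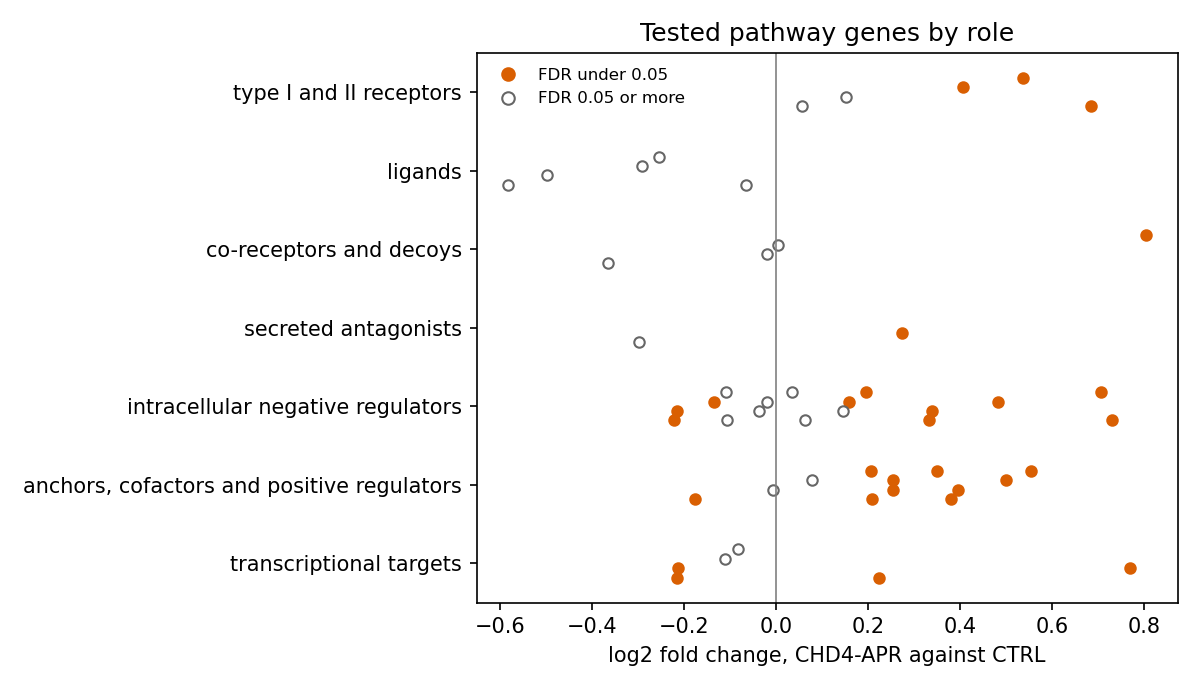
Log2 fold change of CHD4-APR against CTRL for the tested genes of the pathway by role, where filled points passed an adjusted p of 0.05 and open points did not, and vertical offsets separate points only. Acvr2a is drawn with the receptors. Ligands lie at or left of 0 with no call, and 9 of the 12 anchors and cofactors are called higher (4 of these 9 also with the length and GC correction, not drawn), where 20.4% of all genes tested were.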

How the data were processed

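Raw counts per Ensembl gene were deposited for 3 CTRL and 3 CHD4-APR libraries of polyadenylated RNA. The authors made them with featureCounts from reads placed on GRCm38 by STAR (version 2.7.10a) after Cutadapt had removed adaptors; the replicates were not described as separate cultures, so p-values measure only the spread between these libraries. A further 2 columns of no listed sample were not used. The members and lists were chosen with earlier results of these data known. Genes were filtered with filterByExpr, scaled by TMM and tested with edgeR 4.0.16 (quasi-likelihood, no replicate block, two-sided, Benjamini-Hochberg adjustment over 12722 genes, threshold 0.05), a method other than the DESeq2 of the study, which was an alternative here (1.42.0), as was limma-voom (3.58.1). Exonic lengths, GC content and gene locations came from the GENCODE annotation of GRCm38, found for 48349 of 48709 genes. GC content was that of the longest transcript. The correction took offsets from a loess smooth (span 0.5) on length and GC, for 12677 tested genes. What was smoothed was each library's log2 CPM minus the gene's mean over the libraries fitted. Any difference between the groups that follows length or GC is thus taken up by the offsets. Counting intervals and limits for 0 counts (3 counts) cover counting error only. Beside the 10 members and every tested receptor, pathway genes were named at an adjusted p under 0.05 and an absolute log2 fold change of at least 0.3; Tgfb1, Twsg1, Id1, Cdkn1a, Tsc22d1, Ppm1a, Ranbp3, Foxh1, Usp15, Hgs, Gata1, Orc4 and Chd4 were named after their values were seen. Fits were tested on simulated data. Protein sequences were not used here, and 1 marker gene is not reported here.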

Additional observations from a re-analysis of the deposited data

How the results depend on the processing

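The members other than Smad5 called higher numbered 3, and 1 with the length and GC correction, 1 with that correction and a replicate block, 1 at an adjusted p under 0.01, and 1 to 3 when each library was left out (1 without CTRL replicate 2 or without CHD4-APR replicate 1). With the correction, alone or with a replicate block, 14 pathway genes were higher in place of 22. Over all genes the number higher fell from 2601 to 1541 with the correction and to 1726 with the correction and a replicate block, and at an adjusted p under 0.01 it was 1942 while the number lower fell from 2270 to 1308. When each library was left out, the number higher over all genes was 2175 to 2613 and the number lower 1528 to 2315. Under the correction, without and with the block, the log2 fold change of Smad2 turned to -0.0042 and -0.0055 and that of Smad6 to 0.13 in both; the cause was not tested. Leaving out each library gave log2 fold changes of -0.051 to 0.048 for Smad6 and -0.39 to 0.20 for Smad7. Dividing by the longest transcript gave Smad5 shares of 97.0% in CTRL and 97.2% in CHD4-APR, outside 1 SD of the main shares. The log2 fold change of Smad5 was 0.39 with the correction.

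Same-numbered libraries had correlations of 0.0697, 0.0552 and -0.035 in their deviations over genes, and differently numbered ones -0.0808 to 0.0338. All were small, and these values do not settle whether the replicate numbers pair the libraries. A replicate block gave 2739 genes higher and 2475 lower, 3 members higher and 22 pathway genes higher, and it changed no call of the tested members, the tested receptors or the pathway genes chosen by the naming rule; other named genes were not compared under it. Of 343 refitted log2 fold changes, 302 kept their direction and side of the threshold or stayed within the spread, 31 lost their call, 8 reversed and 2 moved. Depth limits Smad1, Smad3 and Smad7, whose counts per library were 35 or fewer.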
